A study of Mus musculus with 2 samples.

Results

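The mouse genes numbered *Zfp900* to *Zfp999* (Zfp9xx below) were examined for peaks of the Dux homeodomains, by taking every protein-coding gene of the RefSeq table whose symbol is Zfp9 followed by 2 digits. There were 62 such genes among 21900 protein-coding genes, on 13 chromosomes, and 62 of the 51356 deposited peaks had their summit inside one of them or within 5 kb of either gene end. Members on the same chromosome were put in 1 cluster where the gap between neighbours was at most 1 Mb, and 5 clusters held 3 or more members. These were on chromosome 4 (14 members), chromosome 17 (10), chromosome 2 (9), chromosome 7 (4) and chromosome 8 (3). The remaining 22 members were 20 single genes and the pair *Zfp934* and *Zfp935* on chromosome 13.

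The peaks come from chromatin immunoprecipitation followed by sequencing in C2C12 cells, a line of mouse myoblasts, from 1 monoclonal line with a doxycycline-inducible, codon-altered MMH transgene. MMH is a chimera of mouse Dux, which supplies the amino terminus and both homeodomains, and human DUX4, which supplies the carboxy terminus, and the cells were made to express it. The 1 antisera library was made with MO488 and MO489, antibodies raised against human DUX4. The 1 control library is labelled anti-HA, although GFP is the control antibody in the design text of the series. Both came from cells of that line treated with doxycycline at 2 ug/ml for 18 h. The peak caller kept 26253175 antisera fragments and 23412256 control fragments after duplicate removal. With 1 library per antibody there is no replicate, so the values below are descriptions of a single peak list and no test was made. The files hold no expression values, so the myoblast markers of the cells were not examined.

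Most numbered Zfp genes encode zinc-finger proteins, in which a row of C2H2 fingers reads DNA. Many also carry a KRAB domain, which recruits the co-repressor TRIM28 and, through it, histone methylation that silences transposable elements. The KRAB zinc-finger genes lie in clusters that grew by gene duplication, and in the mouse several clusters hold copies that are nearly alike in sequence. Dux and DUX4 are double-homeodomain transcription factors of the early embryo, where Dux turns on genes and retroviral elements of the 2-cell stage.

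Start windows of the chromosome 4 cluster are printed first, because they hold a repeated AATCA, the letters that end the known Dux and DUX4 motifs, that was rare elsewhere. The sequences are from RefSeq (GRCm38.p6, the assembly of mm10), which lists 300 bp windows from 250 bases before to 50 after a start for 55 of the 62 members. Each line gives 120 bases upstream of the start, 5′ to 3′ on the strand of the gene, with AATCA or its reverse complement TGATT in capitals. They lie at chr4:147553027-147553146 for *Zfp985* (plus strand), chr4:147305354-147305473 for *Zfp988* (plus), chr4:145670447-145670566 for *Zfp980* (plus) and chr4:147642639-147642758 for *Zfp979* (minus).
Zfp985: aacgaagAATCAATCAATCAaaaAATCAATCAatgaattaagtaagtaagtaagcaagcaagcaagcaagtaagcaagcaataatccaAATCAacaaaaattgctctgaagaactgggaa
Zfp988: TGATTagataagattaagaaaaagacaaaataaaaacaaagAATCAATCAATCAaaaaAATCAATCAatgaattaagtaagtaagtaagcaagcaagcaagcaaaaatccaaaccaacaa
Zfp980: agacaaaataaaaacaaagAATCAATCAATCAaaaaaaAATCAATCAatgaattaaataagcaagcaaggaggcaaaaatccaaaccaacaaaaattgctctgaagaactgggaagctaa
Zfp979: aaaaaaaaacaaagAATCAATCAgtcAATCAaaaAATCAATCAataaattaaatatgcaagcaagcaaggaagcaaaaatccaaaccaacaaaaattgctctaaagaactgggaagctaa

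The windows of 7 of the 10 chromosome 4 members with a listed start held the tandem AATCAATCA on either strand. These were *Zfp979*, *Zfp980*, *Zfp981*, *Zfp982*, *Zfp985*, *Zfp987* and *Zfp988*. No other Zfp9xx gene held it, but *Zfp534*, *Zfp600* and *Rex2*, which lie in the same span outside the numbering, did. Over all 17492 protein-coding genes with a listed start the share was 0.263% (46 genes). The shorter AATCA, which is part of the tandem, occurred at least 3 times in the windows of 12 of the 55 members (21.8%), against 3.11% of all protein-coding genes. A Dux-like core (TGATT and AATCA with 1 base of any kind between) and a DUX4-like core (TAAT and AATCA with 2 bases of any kind between), searched on both strands with letters chosen here, were found in 0 of the 55 members, against 0.0343% and 0.434% of all protein-coding genes. The tandem was picked after these windows were seen, so its share is no independent result. The printed windows also share long stretches with one another, so the genes are not independent occurrences of it. A match is a stretch of letters and does not show binding.

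A summit lay in a listed start window of 1 of the 55 members (1.82%, exact binomial 95% interval 0.0460 to 9.72%), against 1.53% of all protein-coding genes. That member was *Zfp985*. Its peak at chr4:147552901-147553210 covered all 6 AATCA of its window, with the summit in the middle of one of them (0 bp from its centre). Most of these AATCA lie in 1 short run, so a summit anywhere in that run would lie near a centre. The peak was weak, with a pileup of 34 fragments over a local background of 8.0 (3.89-fold, 95% Poisson interval of the pileup 2.73 to 5.39, where the fold is that of pileup over background after 1 is added to each). Among the 46 protein-coding genes with the tandem, 6 had a summit in the window (13%, interval 4.94 to 26.3%). *Zfp985* and *Zfp534* were among the 6. The 46 genes include the windows from which the tandem was picked, and several are neighbours in the chromosome 4 span. This share is therefore no independent result, and its interval treats as independent what is not. The other 6 members with the tandem had no summit there.

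Across the whole group, a summit lay inside or within 5 kb of 34 of 62 members (54.8%, exact binomial 95% interval 41.7 to 67.5%), against 42.0% of the other 305 protein-coding genes named Zfp and a number and 43.2% of all protein-coding genes. Members share peaks and neighbourhoods, so the interval treats as independent what is not. Where 1 gene had several peaks, its best peak was the one with the highest −log10 p. The median fold enrichment of the best peaks was 11.3 over the 34 members, 10.5 over the other Zfp-numbered genes and 11.6 over all protein-coding genes with a peak. The best peak reached 20-fold in 8 of 62 members (12.9%), against 11.8% of all protein-coding genes. A pair of summits or more lay in the windows of 18 members (29.0%), against 19.0% of the other Zfp-numbered genes and 20.8% of all protein-coding genes. The 18 include overlapping members of the chromosome 4 cluster, where all 3 peaks of *Zfp991* were also counted for *Zfp978*.

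Members were longer than most genes, which widens the space in which a peak is counted. Their median length was 23.3 kb, against 16.8 kb for the other Zfp-numbered genes and 17.1 kb for all protein-coding genes. Under 10 kb, 1 of 3 members had a peak (33.3%), against 20.9% of all protein-coding genes of that length. Among genes of 10 to 20 kb, 7 of 20 members had a peak (35.0%), against 33.3% of all protein-coding genes of that length. The shares were 18 of 30 (60.0%, interval 40.6 to 77.3%) against 45.2% at 20 to 40 kb, and 8 of 9 (88.9%) against 77.7% at 40 kb and over. From the shortest class to the longest, 26.9%, 34.6%, 40.7% and 87.5% of the other Zfp-numbered genes had a peak. All 14 members of the chromosome 4 cluster were longer than 20 kb, and 13 of them had a peak. Shares by length were not computed without that cluster. Per length of window there were 21.9 peaks per Mb for the members, 18.7 for the other Zfp-numbered genes and 19.9 for all protein-coding genes.

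**Figure D1:**
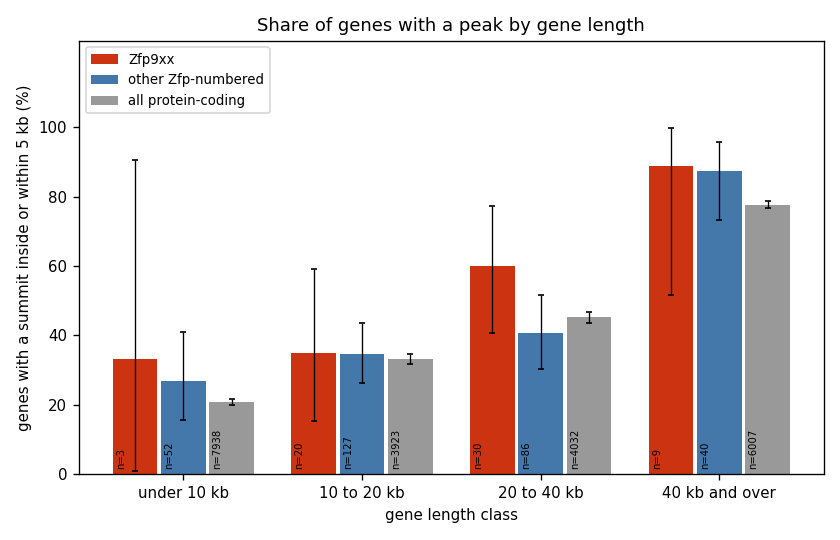
Share of genes with a summit inside or within 5 kb, in percent, by gene length class, for the Zfp9xx genes (left bar), other Zfp-numbered genes (middle) and all protein-coding genes (right). Bars are shares with exact binomial 95% intervals and the number of genes in each bar. The largest gap between members and all coding genes is at 20 to 40 kb, 60.0% against 45.2%. All members of the chromosome 4 cluster are in that class or the longest one.

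The share of members with a peak differed widely between clusters. It was 13 of 14 on chromosome 4 (92.9%, interval 66.1 to 99.8%), 6 of 10 on chromosome 17 (60.0%, 26.2 to 87.8%), 3 of 4 on chromosome 7, 1 of 3 on chromosome 8 and 0 of 9 on chromosome 2 (interval up to 33.6%). Members of 1 cluster share peaks, neighbourhoods or nearly identical sequence, so these intervals too treat as independent what is not. Of the 22 members outside clusters 11 had a peak (50.0%). Among other zinc-finger genes within the spans, 2 of 2 on chromosome 4, 1 of 5 on chromosome 17 and 1 of 2 on chromosome 8 had a peak. Of the 18 protein-coding genes in the chromosome 4 span, members included, 17 had a peak. That span held 17.5 peaks per Mb (counting SE 2.73), against 24.7 on the whole chromosome. Members on chromosome 4 were 20.4 to 479 kb long, and those on chromosome 2 were 10.5 to 22.6 kb long. Leaving out the chromosome 4 cluster gave 21 of 48 members (43.8%), and leaving out the chromosome 2 cluster gave 34 of 53 (64.2%). The share over all protein-coding genes was 43.2%.

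**Figure D2:**
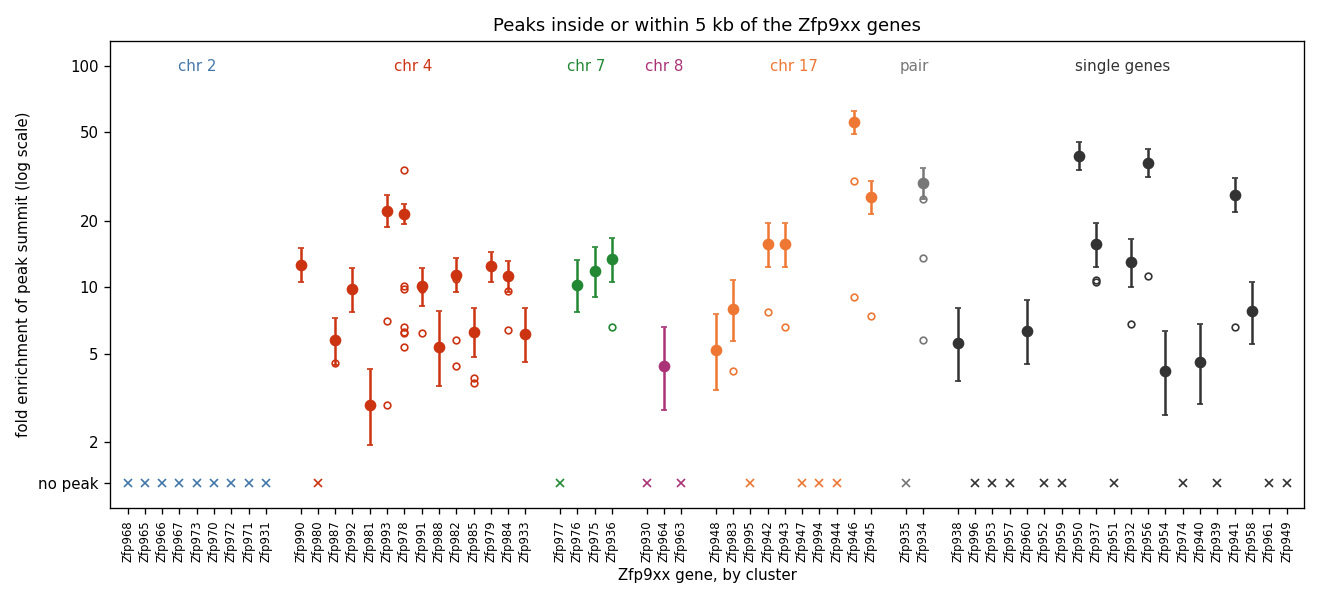
Fold enrichment at the summit (log axis) of every peak inside or within 5 kb of each Zfp9xx gene, by cluster. Filled points are best peaks with 95% Poisson intervals of the pileup, open points are further peaks, and crosses mark genes with no peak; all 9 chromosome 2 members are crosses, and *Zfp946* reaches 55.7.

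The strongest member was *Zfp946* of the chromosome 17 cluster. Its best peak had a pileup of 278 fragments over a background of 4.01, or 55.7-fold (interval 49.3 to 62.6), with the summit 3108 bp inside the gene. Another summit had 150 fragments (30.1-fold, 25.5 to 35.3) and the weakest had 44 fragments (8.98-fold). All 3 summits lay inside *Zfp946*, and no other member reached its best value.

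*Zfp945*, of the same cluster, had 127 fragments (25.5-fold, interval 21.3 to 30.3) and 36 fragments (7.38-fold). The head-to-head neighbours *Zfp942* and *Zfp943* shared 1 peak of 77 fragments (15.6-fold, 12.3 to 19.4), which lay 670 bp inside *Zfp942* and 726 bp outside *Zfp943*. Each also had a peak of its own, at 7.76-fold in *Zfp942* and 6.58-fold in *Zfp943*. *Zfp983* (7.98-fold and 4.19-fold) and *Zfp948* (5.19-fold) were weaker, and their intervals overlapped one another. *Zfp944*, *Zfp947*, *Zfp994* and *Zfp995* had no summit in their windows.

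The strongest peak of the chromosome 17 span belonged to no member. It had 498 fragments (99.5-fold) at chr17:21851457-21852145, and the nearest coding gene was the zinc-finger gene *Zfp820*, 6038 bp away. *Zfp995* stood just outside the 5 kb limit, with a peak of 174 fragments (34.9-fold) at 7828 bp. Just inside the limit stood the second peak of *Zfp936* at 4699 bp (6.58-fold) and the best peak of *Zfp941* at 4457 bp (26.1-fold). The span held 21 peaks over 1.31 Mb (16.0 per Mb, counting SE 3.49), against 18.1 per Mb on the whole chromosome.

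**Figure D3:**
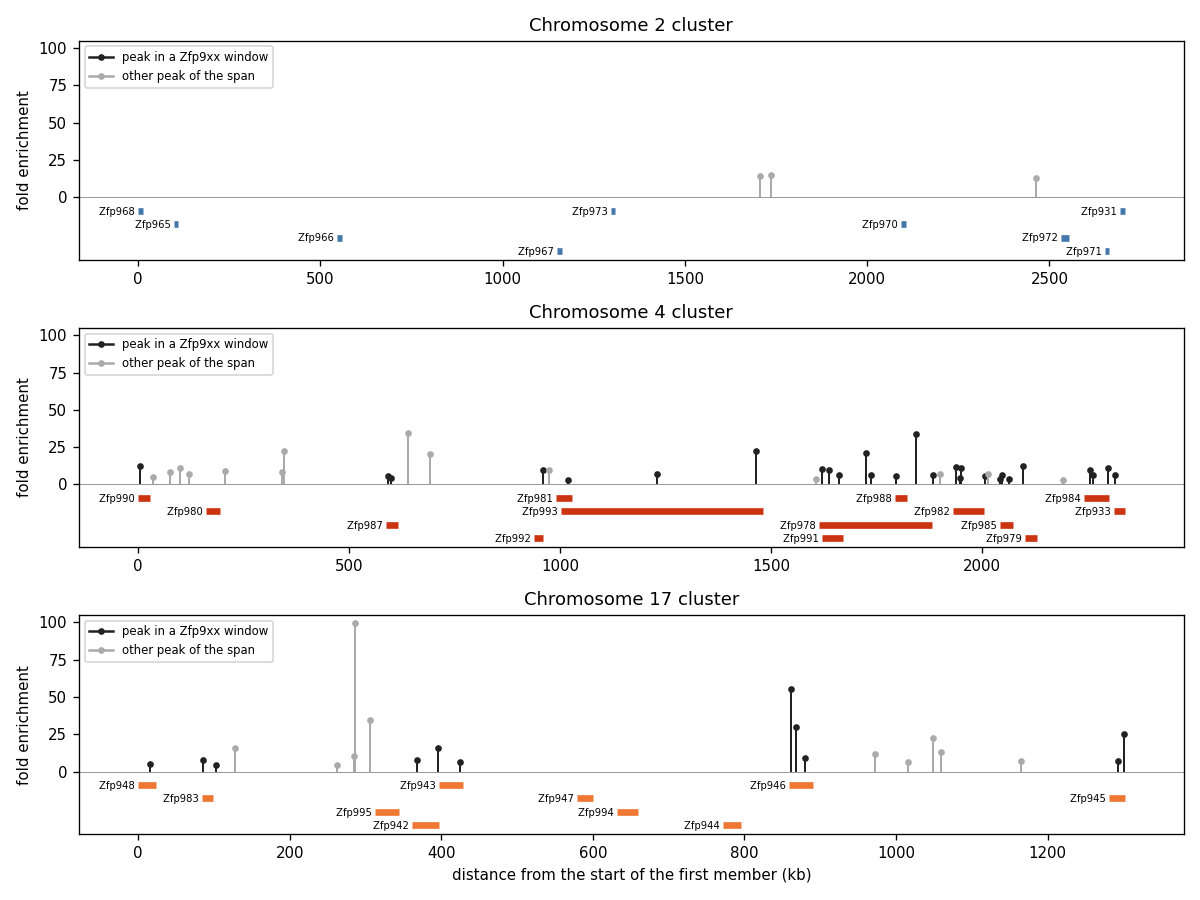
Summits and genes of the chromosome 2, 4 and 17 clusters, by distance in kb from the start of the first member (each panel has its own scale). Stems give the fold enrichment of each peak of the span, dark for peaks in a Zfp9xx window and grey for the others, with the members as bars beneath; the chromosome 2 span has 3 peaks, none of them in a member's window.

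In the chromosome 4 cluster, 13 of 14 members had 27 peaks between them, with best folds from 2.94 at *Zfp981* to 22.1 at *Zfp993*. *Zfp980* was the member without a peak, and its nearest summit lay 12.9 kb away. *Zfp979*, also called Ssm1b, a strain-specific modifier of transgene methylation, had 172 fragments 3283 bp beyond the gene (12.4-fold, interval 10.6 to 14.4). *Zfp990* had 117 fragments inside the gene (12.6-fold, 10.5 to 15.1). *Zfp982* had 4 peaks from 4.42-fold to 11.4-fold, and *Zfp984* had 3 from 6.39-fold to 11.2-fold. *Zfp985* had 3 from 3.67-fold to 6.29-fold.

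Several other members of that cluster had best peaks under 10-fold. *Zfp987* had 2 peaks (5.75-fold and 4.56-fold), *Zfp992* had 1 at 9.80-fold, *Zfp988* had 1 at 5.39-fold and *Zfp933* had 1 at 6.15-fold. *Zfp981* had 25 fragments over a background of 7.85 (2.94-fold, interval 1.94 to 4.28), the weakest best peak of all members.

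Gene models overlapped in this cluster, so peaks were counted for more than 1 member. *Zfp978* (267 kb) spans *Zfp988* and *Zfp991*, and *Zfp993* (479 kb), for which RefSeq lists a predicted transcript, overlaps *Zfp981*. *Zfp978* had 8 peaks, of which 3 were shared with *Zfp991* (10.1-fold at best) and 1 with *Zfp988*. Its best had 356 fragments over a background of 15.7 (21.4-fold), while another had 281 fragments over 7.29 and a higher fold (34.0). *Zfp993* shared the weak *Zfp981* peak, and its best peak (145 fragments, 22.1-fold) lay inside *Rex2* as well. Without *Zfp978* and *Zfp993*, 32 of 60 members had a peak (53.3%).

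The local background, which the peak caller takes mostly from the control library, was raised around the chromosome 4 members. It exceeded the lowest value of the list, 4.01 fragments, in 24 of 27 peaks in their windows (88.9%), against 6 of 35 peaks of the members on other chromosomes (17.1%) and 22.0% of all peaks. Over the whole span of the cluster the share was 90.2%, against 43.1% on all of chromosome 4. The highest was 25.6 fragments, at a peak of 152 fragments beyond *Zfp982* (5.76-fold). Median pileup was 66 fragments in the chromosome 4 peaks and 53 in the others, while median fold was 6.58 in the chromosome 4 peaks and 10.2 in the others. When only peaks at the lowest background were kept, 22 of 62 members had a peak (35.5%), against 38.4% of all protein-coding genes, so the higher share of the members was not present in those peaks. The part of the raised background in these counts was not tested.

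**Figure D4:**
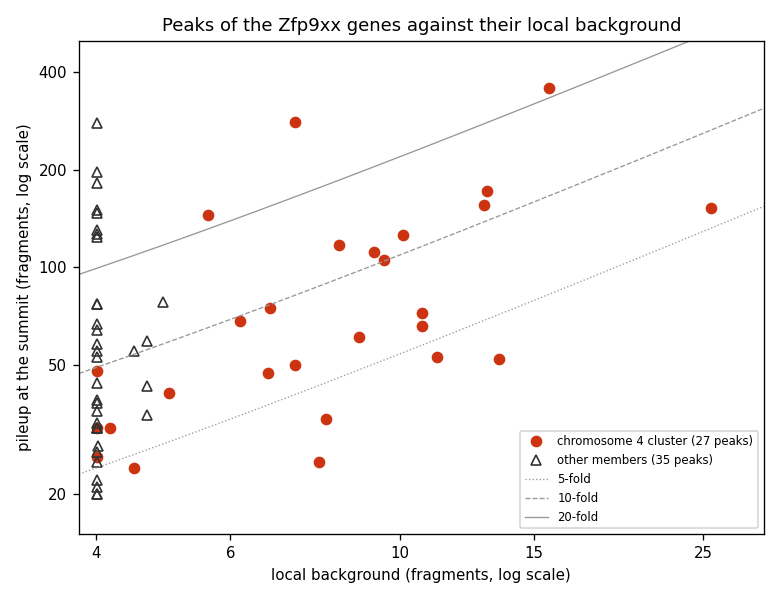
Pileup at the summit against local background, both in fragments on log axes, for the 27 peaks of the chromosome 4 members (filled circles) and the 35 peaks of other members (open triangles). Lines mark 5-fold, 10-fold and 20-fold enrichment; most triangles stand at the lowest background of 4.01, and the circles spread up to 25.6.

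No member of the chromosome 2 cluster had a peak in its window. These were *Zfp931*, *Zfp965*, *Zfp966*, *Zfp967*, *Zfp968*, *Zfp970*, *Zfp971*, *Zfp972* and *Zfp973*, and the nearest summit lay between 68.4 kb (*Zfp972*) and 744 kb (*Zfp966*) away. The span of 2.72 Mb held 3 peaks (1.10 per Mb, counting SE 0.638), against 20.2 per Mb on the whole chromosome. Of the 26 protein-coding genes in the span 1 had a peak. The 3 peaks had 63 to 74 fragments (12.8-fold to 15-fold), all at the lowest background.

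The start windows of all these genes but *Zfp972* are nearly the same sequence, which is why 3 are printed. Each line gives 160 bases upstream of the start, 5′ to 3′ on the strand of the gene, with the bases that differ from *Zfp966* in capitals. They lie at chr2:175931151-175931310 for *Zfp966* (minus strand), chr2:176520794-176520953 for *Zfp967* (plus) and chr2:178023060-178023219 for *Zfp971* (plus).
Zfp966: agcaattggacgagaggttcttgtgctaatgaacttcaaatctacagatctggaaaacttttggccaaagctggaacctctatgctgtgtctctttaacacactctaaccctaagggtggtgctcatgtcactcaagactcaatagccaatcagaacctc
Zfp967: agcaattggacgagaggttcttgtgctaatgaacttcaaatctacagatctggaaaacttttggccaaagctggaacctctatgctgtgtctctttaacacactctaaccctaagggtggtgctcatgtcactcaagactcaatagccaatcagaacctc
Zfp971: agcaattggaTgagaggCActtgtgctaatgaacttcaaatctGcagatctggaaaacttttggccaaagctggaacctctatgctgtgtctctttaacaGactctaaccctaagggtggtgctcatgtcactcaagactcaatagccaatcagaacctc

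*Zfp966* and *Zfp967* matched at 300 of 300 bases, although they lie at different places on the chromosome. *Zfp968* matched *Zfp966* at 274 of 274 aligned bases, *Zfp965* at 285 of 286, *Zfp973* at 273 of 274, *Zfp970* at 293 of 295, *Zfp971* at 279 of 286 and *Zfp931* at 242 of 256. *Zfp972* was the exception, with 182 of 277 (65.7%). The windows were aligned without gaps, so an inserted or deleted base would lower these values. The windows were also cut into words of 36 bases, and each word was looked up on both strands in the start windows of all other places. In 8 of the 9 chromosome 2 members at least 50% of the words occurred elsewhere (median 100%), against 1 of 10 chromosome 4 members (median 26.0%), 3 of 10 chromosome 17 members (median 7.92%) and 5.88% of all protein-coding genes (median 0%). No source used here says how reads that map to several places were handled. *Zfp972* had 0% of its words elsewhere and no peak. *Zfp942* (86.4%) and *Zfp943* (87.2%) on chromosome 17 had most of theirs elsewhere and had peaks, but with summits outside the start windows. The words cover the start windows only and do not describe the sequence under those peaks. The part of read mapping in the absence of peaks on chromosome 2 was not tested.

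Members of the smaller clusters had moderate best peaks on chromosome 7 and a weak peak on chromosome 8. On chromosome 7, *Zfp936* had 78 fragments (13.4-fold, interval 10.6 to 16.7), *Zfp975* had 58 fragments (11.8-fold) and *Zfp976* had 55 fragments (10.2-fold), and their intervals overlapped. *Zfp977* had none within 5 kb. On chromosome 8, *Zfp964* had 21 fragments (4.39-fold), and *Zfp930* and *Zfp963* had none.

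Members outside clusters included several of the strongest. *Zfp950* on chromosome 19 had 196 fragments in a peak 2108 bp wide (39.3-fold, interval 34.0 to 45.2), with its summit 7765 bp inside the gene. *Zfp956* on chromosome 6 had 182 fragments (36.5-fold, 31.4 to 42.2) inside the gene, and 55 fragments (11.2-fold) beyond its 3′ end. These intervals overlapped with each other, and both lay below that of *Zfp946*.

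*Zfp934* had 4 summits, all inside the gene, at 29.5-fold (interval 25 to 34.7), 24.9-fold, 13.6-fold and 5.77-fold, while its neighbour *Zfp935* had none within 5 kb. *Zfp941* had 130 fragments (26.1-fold, 21.9 to 31.0) and 32 fragments (6.58-fold), both beyond its 3′ end. *Zfp937* had 3 peaks, the best with 77 fragments (15.6-fold). *Zfp932* had 64 fragments (13-fold, 10.0 to 16.5) in a peak of 1377 bp and 33 fragments (6.78-fold). *Zfp932* encodes a KRAB zinc-finger protein known as a repressor of endogenous retroviruses in mouse embryonic stem cells.

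The weaker single genes were *Zfp958* (7.78-fold), *Zfp960* (6.35-fold), *Zfp938* (5.59-fold), *Zfp940* (4.59-fold) and *Zfp954* (4.19-fold), with 20 to 38 fragments each. *Zfp939*, *Zfp949*, *Zfp951*, *Zfp952*, *Zfp953*, *Zfp957*, *Zfp959*, *Zfp961*, *Zfp974* and *Zfp996* had no summit in their windows. Their nearest summits lay from 13.9 kb (*Zfp996*) to 144 kb (*Zfp939*) away.

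Position relative to the gene was read with the strand of the RefSeq start, where one was listed. Counting a shared peak once for each member, 50 of 68 summits lay inside the gene, 6 in the 5′ flank, 9 in the 3′ flank and 3 in a flank of a gene whose strand was not listed. At least 1 summit lay inside the gene in 26 of 62 members (41.9%), against 32.3% of all protein-coding genes. Summits within 1 kb of either gene end occurred in 10 of 62 members (16.1%, interval 8.02 to 27.7%), against 12.5% of the other Zfp-numbered genes and 7.47% of all protein-coding genes. *Zfp942* and *Zfp943* were both counted for their shared peak, so this interval too treats as independent what is not.

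Several summits, most of them near a gene end, stood a short distance downstream of a listed start. A summit lay 500 to 1000 bp downstream of a listed start in 6 of the 55 members (10.9%, interval 4.11 to 22.2%), against 2.80% of the other Zfp-numbered genes and 1.14% of all protein-coding genes. They were *Zfp945* at 570 bp, *Zfp942* at 631 bp, *Zfp983* at 670 bp, *Zfp954* at 799 bp, *Zfp988* at 830 bp and *Zfp984* at 890 bp. The *Zfp984* summit lay 3331 bp from the nearer gene end. Fold enrichment there ran from 4.19 at *Zfp954* (20 fragments) to 25.5 at *Zfp945* (127 fragments), and the 6 genes lay on chromosomes 4, 7 and 17. This window was picked after the positions were seen, so its share is no independent result. *Zfp991*, without a listed start, had a summit 716 bp inside one of its ends.

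**Figure D5:**
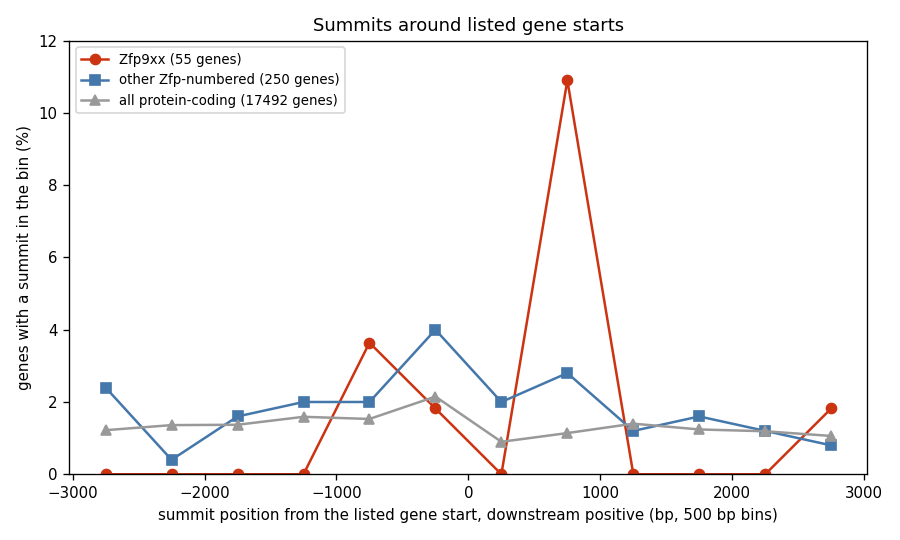
Share of genes with a summit in each 500 bp bin around the listed start (downstream positive), in percent, for the 55 Zfp9xx genes, 250 other Zfp-numbered genes and 17492 protein-coding genes with a listed start. The Zfp9xx line stands at 10.9% in the bin from 500 to 1000 bp downstream, where all protein-coding genes stand at 1.14%.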

How the data were processed

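Per the submitters' processing notes, reads were processed with BWA and MACS2 on mm10. Version 2.1.0.20151222 of the peak caller MACS was run on paired-end data at a q-value threshold of 0.01, with duplicate fragments beyond 1 discarded, per the file headers. For mapping settings, read filters and multi-mapping reads, details were not given in the sources used here. The authors' pileup is a signal in fragments over the summit, significance was deposited as −log10 p-value and −log10 q-value, and the deposited fold enrichment is a ratio to the local background, with 1 added to both.

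Here the local background was recovered from pileup and fold. A Poisson −log10 p recomputed from it matched the deposited one to 1% or better in 100% (rounded) of peaks where it could be computed, with the better of both tail conventions. Genes came from RefSeq (GRCm38.p6). Gene and peak positions were joined with Python 3.11.15 and pandas 2.3.3, and the join was tested on simulated data. Intervals are at 95% and cover counting error only, since amplified fragments are not independent molecules. The depth above is for the 2 libraries, which were grouped by antibody label. Every member with a peak is named, with fuller values for the 15 members of highest best fold, members with several peaks and shared peaks. Start windows and the 500 to 1000 bp bin were described after the values were seen. Members and lists were chosen with earlier results of these data known. Alternatives were other distances, q-values, peak strengths, backgrounds and cluster gaps. Protein sequences and the sequence under peaks were not analysed here.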

Additional observations from a re-analysis of the deposited data

How the results depend on the processing

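The 34 members with a peak became 28 inside or within 1 kb of the gene (45.2%, against 35.0% of all protein-coding genes). They became 40 inside or within 20 kb (64.5%, against 62.3%) and 30 at a −log10 q of at least 10 (48.4%, against 39.8%). With the strongest 10% of peaks alone, 8 members had a peak (12.9%), against 18 other Zfp-numbered genes (5.90%) and 1945 protein-coding genes (8.88%). That setting left 11 peaks and 1 member with a summit within 1 kb of an end. The median best fold was then 27.8 over members and 34.7 over all protein-coding genes with a peak. Without peaks above the lowest local background there were 22 members (35.5%, against 38.4% of all protein-coding genes) and 32 peaks. Counting within 5 kb of the ends alone gave 27 members (43.5%), 32 peaks and 6028 protein-coding genes (27.5%). Inside or within 20 kb there were 200 other Zfp-numbered genes (65.6%). Without the chromosome 4 cluster, a setting chosen after seeing the data, there were 21 of 48 members (43.8%) and 35 peaks. Each setting changes how many peaks, bases or genes are counted. Why the share of members fell below that of all protein-coding genes at the lowest background was not tested. The number of clusters with a peak was 4 at every gap. No paired analysis was possible because each antibody has 1 library. With 1 peak list, culture-to-culture variation could not be measured.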
